A study of Homo sapiens with 8 samples.

Results

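The CIP/KIP, BTG/TOB and GADD45 genes, which encode proteins that slow or stop cell growth, were followed across 4 treatments of DU145 cells. The genes named were CDKN1A, CDKN1B and CDKN1C, BTG1, BTG2, BTG3, TOB1 and TOB2, and GADD45A and GADD45B, 10 in all. They were found by their gene symbol in the platform annotation, which named 1 probeset each for 9 of them among the 33297 probesets of the arrays. The signal of BTG2 was not analysed here. DU145 is a human prostate carcinoma line that grows without androgen, carries mutant p53 and lacks a working retinoblastoma protein. Cells were kept without serum and assigned to 4 groups of 2 Affymetrix Human Gene ST arrays, which the labels call biological replicates without saying how they were separated, so that p-values measure the spread between these arrays. According to the labels, Mock cells were untreated, FGF19 cells received 50 ng/ml FGF19 plus 100 µg/ml heparin for 100 min, and TNFα cells received 50 ng/ml TNFα for 90 min. FGF19 + TNFα cells received FGF19 and heparin 10 min before TNFα was added for 90 min. The methods text gives 50 µg/ml heparin and 10 ng/ml TNFα instead, and no array received heparin without FGF19 or FGF19 without heparin, so these agents cannot be told apart. FGF19 is a ligand of the receptor FGFR4, and TNFα is a cytokine of inflammation that switches on the transcription factor NFκB.

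The CIP/KIP proteins p21 (CDKN1A), p27 (CDKN1B) and p57 (CDKN1C) bind complexes of cyclins and cyclin-dependent kinases (CDKs) and hold cells before DNA replication. CDKN1A is a well known target of p53 and is also switched on by other stress pathways, while p27 is typically high in resting cells and is removed by ubiquitin ligases when growth factors arrive. BTG and TOB proteins recruit the CCR4-NOT deadenylase to messenger RNA and restrain proliferation, and GADD45 proteins respond to stress and bind MAP3K4, p21 and CDK1.

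CDKN1A and GADD45A were higher with TNFα and did not pass the test with FGF19 alone. BTG1 was higher with TNFα and lower with FGF19. GADD45B and CDKN1B were lower with FGF19. CDKN1A, CDKN1B, BTG1 and GADD45B were all lower after both agents than after TNFα alone. Signal was compared on the log2 scale with limma fitted to all 33297 probesets on all 8 arrays. A gene is said to differ at a Benjamini-Hochberg adjusted p under 0.05. The study had tested the 4 groups on these arrays by one-way ANOVA at a corrected p of 0.015, over fewer probesets. From the probesets that passed, it listed those of CDKN1A, CDKN1B and BTG1. Of the 9 genes, 5 (CDKN1A, CDKN1B, BTG1, GADD45A and GADD45B) differed among the 4 groups by limma's F test at an adjusted p under 0.015. Of all probesets, 20.9% did. For the genes that the study had listed, this F test is not independent evidence. Without Mock replicate 1, as without Mock replicate 2, only CDKN1A and BTG1 of these 9 passed that test, and without FGF19 + TNFα replicate 2 only CDKN1A, BTG1 and GADD45A. For arrays of bulk cells, fewer cells expressing a gene and less RNA per cell cannot be told apart.

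**Figure D1:**
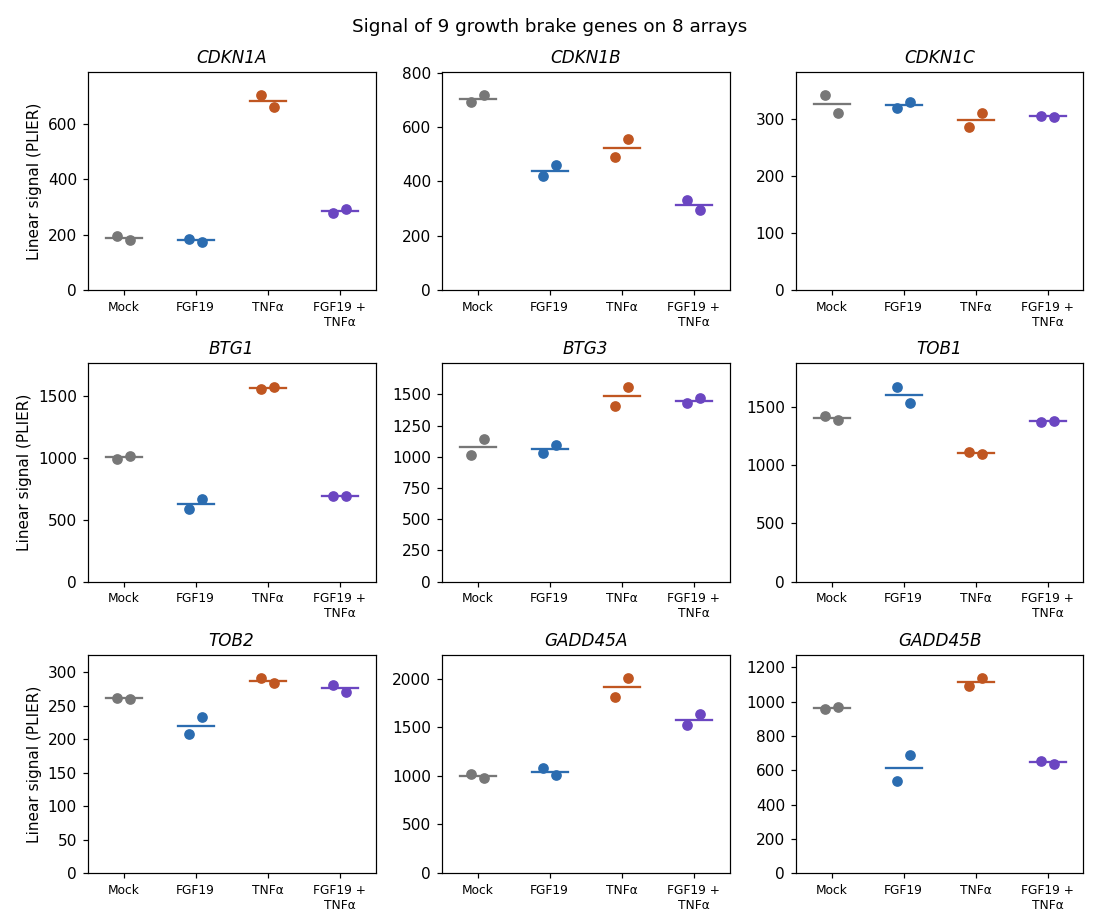
Linear PLIER signal (vertical axes, each starting at 0 with its own scale) of the 9 measured genes in Mock, FGF19, TNFα and FGF19 + TNFα. Points are arrays and bars are means of 2 arrays; CDKN1A stands at 661 and 703 in TNFα and between 173.8 and 291 in the other groups.

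The 4 genes that were lower after both agents than after TNFα alone are shown with the 250 bases before their transcription start (RefSeq, GRCh38.p14, written 5′ to 3′ on the strand of the gene). The CDKN1A stretch is chr6:36678464-36678713 (plus strand), BTG1 is chr12:92145847-92146096 (minus), CDKN1B is chr12:12717118-12717367 (plus) and GADD45B is chr19:2475877-2476126 (plus). Capitals mark matches, on either strand, to the TATA box TATAAA, the GC box GGGCGG, the cAMP response element TGACGTCA, the AP-1 motif TGANTCA, the E-box CACGTG and the κB motif of NFκB.
CDKN1A: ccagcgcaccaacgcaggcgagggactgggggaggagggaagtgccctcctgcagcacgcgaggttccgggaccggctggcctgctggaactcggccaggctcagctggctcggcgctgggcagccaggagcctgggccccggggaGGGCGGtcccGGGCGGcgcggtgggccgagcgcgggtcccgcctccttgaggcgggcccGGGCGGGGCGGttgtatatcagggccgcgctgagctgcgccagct
BTG1: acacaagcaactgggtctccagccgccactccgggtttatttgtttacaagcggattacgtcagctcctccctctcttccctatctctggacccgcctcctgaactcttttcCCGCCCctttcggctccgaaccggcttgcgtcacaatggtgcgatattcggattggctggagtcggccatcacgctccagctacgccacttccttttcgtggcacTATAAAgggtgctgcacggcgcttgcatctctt
CDKN1B: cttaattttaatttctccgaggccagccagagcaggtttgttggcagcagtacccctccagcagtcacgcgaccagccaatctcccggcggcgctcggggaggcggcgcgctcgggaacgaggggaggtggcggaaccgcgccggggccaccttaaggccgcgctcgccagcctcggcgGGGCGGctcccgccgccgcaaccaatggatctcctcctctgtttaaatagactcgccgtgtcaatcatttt
GADD45B: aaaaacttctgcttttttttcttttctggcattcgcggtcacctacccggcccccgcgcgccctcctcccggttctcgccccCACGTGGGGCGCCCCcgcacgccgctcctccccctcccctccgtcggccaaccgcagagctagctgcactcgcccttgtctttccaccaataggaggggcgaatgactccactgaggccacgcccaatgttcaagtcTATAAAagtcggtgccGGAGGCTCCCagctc

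The promoters of these 4 genes carried different motifs. CDKN1A had 4 GC boxes, the last pair sharing 1 base, and CDKN1B and BTG1 had 1 each. A TATA box began at position −33 from the start of BTG1 and at −31 from that of GADD45B. GADD45B also had an E-box, which shares 1 base with a κB match that reads on both strands, and a further κB match at position −15. Windows were matched by symbol for 8 of the 10 genes, with BTG2 among them, and not for CDKN1C and GADD45A. TOB1 had 2 windows and was counted as 1 gene. Of these 8, 7 had a GC box, 2 a TATA box, 1 an E-box, 1 a κB match and 0 a cAMP response element or an AP-1 match. Of 35116 promoter windows of the same length, 42.6% held a GC box, 10.7% a TATA box, 6.34% an E-box, 9.96% a κB match, 1.65% a cAMP response element and 6.57% an AP-1 match. A match describes the sequence and says nothing on whether a factor binds there.

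Epithelial markers were present on the arrays. KRT8, KRT18, KRT19, KRT7, EPCAM and CDH1, that is 6 of 7 epithelial markers, lay above the median signal of every array, and KRT5 ranged from 86.7 to 119. The prostate luminal markers KLK2 and KLK3 stayed between 37.4 and 79.4, below the median of each array, which was 99.5 to 107 over the 8 arrays. None of 6 fibroblast markers lay above the median of every array, the brightest being COL1A1 at 102 to 125. The leukocyte marker PTPRC ranged from 13.7 to 29.7, below the 20th percentile of each array, with 1 of 5 leukocyte markers (CD68) and 1 of 5 endothelial markers (CDH5) above the median of every array; no marker of these lists was at 0. The summed epithelial signal was 11913 and 12217 in Mock, 10959 and 11083 with TNFα, 7764 and 8653 with FGF19 and 8341 and 8359 with FGF19 + TNFα, so that it was lower on the 4 arrays given FGF19. The summed signal of the fibroblast markers was 294.8 to 314 without FGF19 and 312 to 378 with it, that of the leukocyte markers 440 to 467 and 418 to 467, and that of the endothelial markers 486 to 519 and 532 to 585. The part of these shifts in the differences with FGF19 was not tested.

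Among the CIP/KIP genes, CDKN1A had the highest rise with TNFα of the 9 genes. Its signal was 196 and 181 in the Mock arrays and 703 and 661 in the TNFα arrays, so that the groups did not overlap. This was a 3.62-fold rise (1.86 on the log2 scale with a standard error of 0.09, and limma's adjusted p = 0.00118 with 2 arrays in each group). With FGF19 alone CDKN1A stood at 185 and 174, within the range of the Mock arrays at the upper end and just below it at the lower end (log2 difference −0.07, 95% confidence interval −0.29 to 0.15). With FGF19 + TNFα it stood at 278 and 291, above both Mock and FGF19 and below TNFα. It was thereby 2.4-fold lower than under TNFα alone and 1.51-fold higher than in Mock (adjusted p = 0.00505). In the supplement of the study, which analysed the same arrays with other software, both rises of this probeset over Mock were smaller. There, its signal with FGF19 + TNFα was only slightly above Mock. The size of these rises thus depends on the processing.

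CDKN1B went the other way with TNFα and was lowest when both agents were given. Its signal was 692 and 717 in Mock, 488 and 556 with TNFα, 420 and 459 with FGF19 and 331 and 297 with FGF19 + TNFα, with no overlap between any of the 4 groups. It was 1.6-fold lower with FGF19 than in Mock (log2 difference −0.68 with a standard error of 0.11, limma adjusted p = 0.0063). The difference between TNFα and Mock was −0.44 on the log2 scale and did not pass (adjusted p = 0.195). CDKN1B was 1.66-fold lower after both agents than after TNFα alone (adjusted p = 0.00574) and 2.25-fold lower than in Mock (log2 difference −1.17, standard error 0.11, adjusted p = 0.00185). CDKN1C, the p57 gene, ranged from 286 to 342 over all 8 arrays and was called in 0 of the comparisons. Between groups, its 95% confidence intervals ran from −0.35 at the lowest (TNFα against Mock) to 0.25 at the highest (FGF19 + TNFα against TNFα) on the log2 scale, and that of its interaction from −0.28 to 0.35.

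In the BTG/TOB family, BTG1 moved in opposite directions with the 2 agents. Its signal was 989 and 1014 in Mock, 1556 and 1571 with TNFα, 583 and 663 with FGF19 and 694 and 689 with FGF19 + TNFα. It was 1.56-fold higher with TNFα (log2 difference 0.64 with a standard error of 0.09, limma adjusted p = 0.0405) and 1.61-fold lower with FGF19 (−0.69, adjusted p = 0.00391). With FGF19 + TNFα, BTG1 was 2.26-fold lower than under TNFα alone and 1.45-fold lower than in Mock (adjusted p = 0.00726). The call for TNFα was close to the threshold and ended under 9 of 16 alternatives, namely no moderation, a replicate block, a fit of the compared groups only, and leaving out either array of Mock, TNFα or FGF19 + TNFα (adjusted p up to 0.256).

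BTG3, TOB1 and TOB2 showed smaller differences. BTG3, an inhibitor of proliferation of the same family, was at 1011 and 1141 in Mock and 1028 and 1091 with FGF19, against 1409 and 1561 with TNFα, and with FGF19 + TNFα at 1429 and 1471. The 4 arrays given TNFα were above the 4 without it, but only FGF19 + TNFα against Mock passed (log2 difference 0.43 with a standard error of 0.10, limma adjusted p = 0.0212), and this call ended without Mock replicate 1 or either FGF19 + TNFα array (adjusted p up to 0.113). TOB1, whose product binds the deadenylase and poly(A)-binding protein, ran against BTG1. It was at 1421 and 1383 in Mock, 1113 and 1090 with TNFα, 1669 and 1533 with FGF19 and 1370 and 1378 with FGF19 + TNFα. TOB1 was 1.25-fold higher after both agents than after TNFα alone (adjusted p = 0.0314), a call that ended under 7 of 16 alternatives, namely a fit of the compared groups only and leaving out either array of Mock, TNFα or FGF19 + TNFα (adjusted p up to 0.136). Its differences from Mock with TNFα (log2 difference −0.35, adjusted p = 0.178) and with FGF19 (0.19, adjusted p = 0.135) did not pass. TOB2 stayed between 208 and 291 and was called in 0 of the comparisons.

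Of the GADD45 genes, GADD45A was called with TNFα and GADD45B with FGF19. GADD45A was at 1022 and 977 in Mock and 1076 and 1008 with FGF19, and at 1815 and 2004 with TNFα, and with FGF19 + TNFα at 1521 and 1635. It was 1.91-fold higher with TNFα than in Mock (log2 difference 0.93 with a standard error of 0.10, limma adjusted p = 0.0117) and 1.58-fold higher with FGF19 + TNFα than in Mock (adjusted p = 0.00437). Without any 1 of the Mock or TNFα arrays the first of these did not pass (adjusted p up to 0.12). The difference between FGF19 + TNFα and TNFα was −0.27 on the log2 scale (95% confidence interval −0.51 to −0.04, adjusted p = 0.0729), and of the alternatives (limma adjusted p from 0.0264 to 0.296) it passed with a trended and robust prior alone, at the lowest of these. GADD45B, known from other cells as an NFκB target that restrains stress kinase signaling, had another order. It was at 957 and 970 in Mock, 1091 and 1137 with TNFα, 540 and 688 with FGF19 and 656 and 637 with FGF19 + TNFα. The difference with TNFα was 0.21 on the log2 scale (95% confidence interval −0.10 to 0.51, adjusted p = 0.548). GADD45B was 1.58-fold lower with FGF19 than in Mock (adjusted p = 0.0107), where the 2 FGF19 arrays lay further apart than the arrays of the other groups, and this call ended without either Mock array (adjusted p up to 0.0597). It was 1.72-fold lower after both agents than after TNFα alone (log2 difference −0.79, standard error 0.13, adjusted p = 0.00704). Its difference between FGF19 + TNFα and Mock (−0.58, adjusted p = 0.0161) did not pass without either array of these groups (adjusted p up to 0.0818).

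Of the family members outside the 10 genes, GADD45G was at 128 and 137 in Mock, 114 and 106 with TNFα, 134.9 and 136 with FGF19 and 135.2 and 135.4 with FGF19 + TNFα. It was 1.23-fold higher after both agents than after TNFα alone (adjusted p = 0.0392 from limma) and passed in no other comparison. BTG4, a member of the BTG family known from oocytes, stayed between 20.7 and 34.9, near or below the 20th percentile of the arrays (30.7 to 36.6).

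Counted over the 9 genes, TNFα against Mock gave 3 higher (CDKN1A, BTG1 and GADD45A) and 0 lower, where 1.06% of all probesets were called, 0.967% higher and 0.0961% lower. Their median log2 difference was 0.21, and that of all probesets −0.04. Of the 3, only CDKN1A passed in fits lacking any 1 Mock or TNFα array and in a fit of these groups only. FGF19 against Mock gave 0 higher and 3 lower (CDKN1B, BTG1 and GADD45B), where 32.2% of all probesets were called, 18.2% higher and 14.1% lower. The share called among the 9 genes was thus near that of all probesets. FGF19 + TNFα against TNFα gave 1 higher (TOB1) and 4 lower (CDKN1A, CDKN1B, BTG1 and GADD45B), where 32.4% of all probesets were called, 19.4% higher and 12.9% lower. The study had picked CDKN1A and BTG1 on these arrays for this last difference, so their calls there are not independent evidence of its direction. It had also listed CDKN1A and CDKN1B for differences from Mock, so the same holds for their calls against Mock. The median over the 9 genes was −0.27, and that of all probesets 0.10. FGF19 + TNFα against Mock gave 3 higher (CDKN1A, BTG3 and GADD45A) and 3 lower (CDKN1B, BTG1 and GADD45B), where 33.9% of all probesets were called, 19.3% higher and 14.7% lower. These comparisons share groups, so that each value is given on its own.

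**Figure D2:**
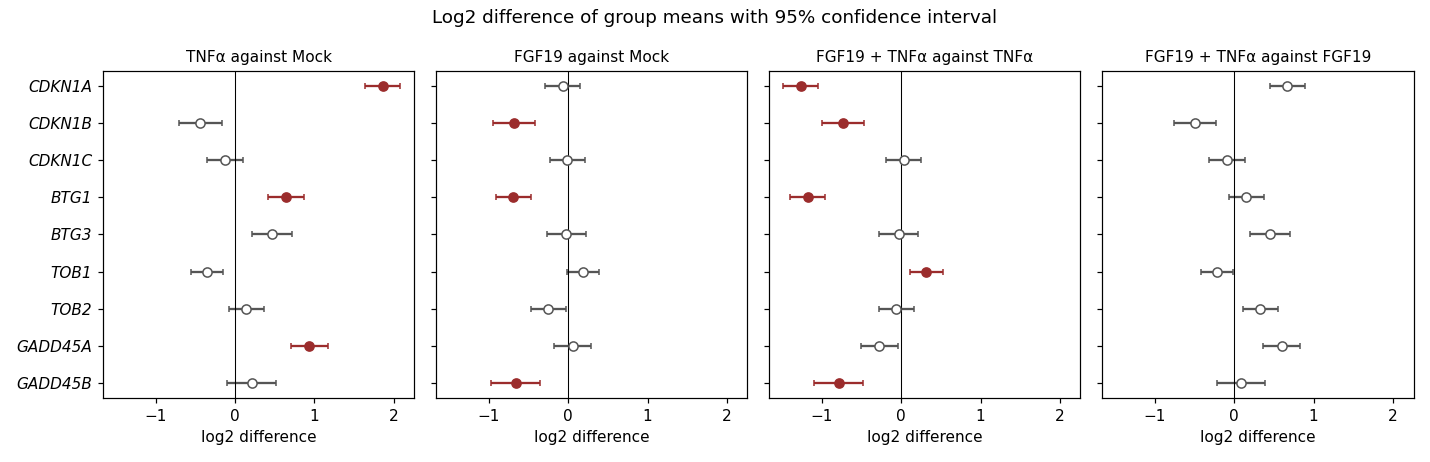
Log2 difference of group means (horizontal axes) for the 9 genes in 4 comparisons, with 95% confidence intervals from limma. Filled red points passed at an adjusted p under 0.05: 3 with TNFα against Mock, 3 with FGF19 against Mock, 5 with FGF19 + TNFα against TNFα and 0 with FGF19 + TNFα against FGF19.

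The response to TNFα was then set beside the same response in cells given FGF19 first. FGF19 + TNFα against FGF19 gave 0 calls among the 9 genes with limma (6 at an unadjusted p under 0.05), where 0.282% of all probesets were called, 0.279% higher and 0.003% lower, and 2000 had an unadjusted p under 0.05. CDKN1A was 1.59-fold higher in this comparison (log2 difference 0.67, standard error 0.09, adjusted p = 0.0784) and GADD45A 1.51-fold higher (0.60, adjusted p = 0.132). CDKN1A passed with 16 added to each signal, with the dimmest 20 percent of probesets left out and with a trended and robust prior, and GADD45A in the first and last of these. The difference between the TNFα responses, tested as an interaction, was called for 0 of the 9 genes, under each alternative run, and for 0% of all probesets (3 of the 9 genes and 1715 of 33297 probesets, 5.15%, had an unadjusted p under 0.05). For CDKN1A it was −1.19 on the log2 scale (standard error 0.13, 95% confidence interval −1.50 to −0.88, unadjusted p = 7.35e-05, adjusted p = 0.349 from limma), the TNFα response being 1.86 without FGF19 and 0.67 with it. For BTG1 it was −0.49 (95% confidence interval −0.80 to −0.17, adjusted p = 0.882) and for GADD45A −0.33 (−0.66 to −0.01, adjusted p = 0.96). For CDKN1B the TNFα difference was −0.44 without FGF19 and −0.49 with it (interaction −0.05, 95% confidence interval −0.43 to 0.32), and for BTG3 0.47 and 0.45 (interaction −0.01, −0.36 to 0.34).

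**Figure D3:**
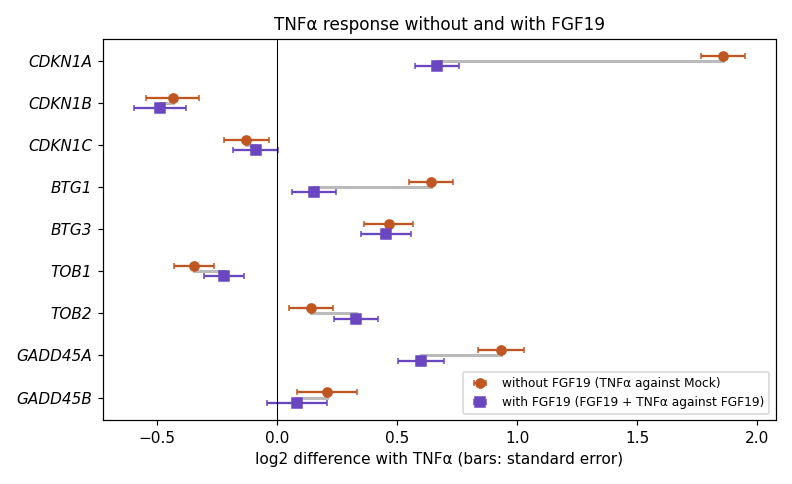
Log2 difference with TNFα (horizontal axis) for each of the 9 genes without FGF19 (orange circles, TNFα against Mock) and with FGF19 (purple squares, FGF19 + TNFα against FGF19), with standard errors as bars. The widest gap is that of CDKN1A, from 1.86 to 0.67; CDKN1B, CDKN1C, BTG3, TOB1 and GADD45B have overlapping bars.

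The genes whose signal over the 8 arrays was most like that of the 3 genes called with TNFα against Mock were found among 11294 probesets with 1 symbol and a mean signal above the median of all probesets, by Pearson correlation of log2 signal, as a description of these 8 arrays and their shared treatments. For CDKN1A they were PDP1 (r = 0.990), PPP1R15B, which encodes a subunit that directs dephosphorylation of the initiation factor eIF2α (r = 0.984), and LYPD3 (r = 0.979). For BTG1 they were CHAC1, a glutathione-degrading enzyme gene (r = 0.992), and both probesets of the bZIP factor gene MAFG (r = 0.992 and 0.991). For GADD45A they were ICOSLG, AMOTL2 and YPEL2 (r = 0.988, 0.988 and 0.987).

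Partners of these proteins and genes of their pathways were read from 7 lists, with 87 measured genes in all. With TNFα against Mock, 6 of these were higher and 0 lower, where 0.967% of all probesets were higher and 0.0961% lower. They were CDKN2B, which encodes the CDK inhibitor p15 (2.21-fold), the stress kinase genes PLK3 (3.66-fold) and PLK2 (1.48-fold) of the p53 list, and SOD2, BCL6 and KLF6 of the FOXO list (3.24-, 2.12- and 2.03-fold). CDKN2B was at 215 to 228 in Mock, 304 to 358 with FGF19 (1.49-fold higher than Mock, limma adjusted p = 0.0104), 488 to 492 with TNFα and 471 to 515 with FGF19 + TNFα. The other 4 lists had 0 calls with TNFα, where 1.06% of all probesets were called. The 11 stress MAP kinase genes had a median log2 difference of −0.02 against −0.04 for all probesets.

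The arrays given FGF19 differed in many more of these genes, as they did over all probesets (32.2% and 32.4% called, as above). Of 13 cyclin, CDK and PCNA genes, whose products CIP/KIP proteins bind, 8 were lower and 1 higher with FGF19 than in Mock (median log2 difference −0.46, all probesets 0.08), and 8 were lower and 2 higher after both agents than after TNFα alone (−0.50, all probesets 0.10). CDK4 was 1.91-fold and CDK2 1.8-fold lower with FGF19, and CDK6 1.65-fold higher. Of 7 other CDK inhibitors and pocket proteins, 4 were higher and 3 lower with FGF19, among them RB1 by 2.15-fold and RBL1 by 1.62-fold upwards and CDKN3 by 1.59-fold downwards. RB1 was at 659 and 661 in Mock, 657 and 663 with TNFα, 1224 and 1640 with FGF19 and 1428 and 1465 with FGF19 + TNFα.

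Of 14 genes of the CCR4-NOT deadenylase and partners of BTG/TOB proteins, 7 were higher and 2 lower with FGF19 than in Mock (median 0.24). After both agents, 6 were higher and 3 lower than after TNFα alone (median 0.22). Of all probesets, 18.2% were higher and 14.1% lower in the first comparison (median 0.08), and 19.4% and 12.9% in the second (median 0.10). CNOT4 was 1.8-fold and CNOT6L, a deadenylase subunit, 1.55-fold higher with FGF19, while PRMT1, an arginine methyltransferase that binds BTG proteins, was 2.31-fold lower. Of 10 genes listed with the ubiquitin ligases that degrade CIP/KIP proteins, 3 were higher and 4 lower with FGF19. RBX1 was 1.81-fold, DDB1 1.48-fold and SKP1 1.39-fold lower, while CUL4B, DTL and SKP2 were 1.32-, 1.28- and 1.25-fold higher. The CDK regulatory subunit gene CKS2, whose part in these ligases was not tested, was 2.09-fold lower. With FGF19 + TNFα against TNFα, 2 of the 10 were higher (SKP2 and CUL4B) and 4 lower. The study had picked CKS2 on these arrays as well. Of 11 stress MAP kinase genes, 2 were higher and 2 lower with FGF19, a share near the 32.2% of all probesets called. The largest of these differences was MAPK13, 1.96-fold lower. With FGF19 + TNFα against TNFα, 2 were higher and 3 lower, where 32.4% of all probesets were called.

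Of 18 genes of p53 and its targets, 3 were higher and 5 lower with FGF19 than in Mock (median −0.07). After both agents, 4 were higher and 3 lower than after TNFα alone (median −0.15). Over all probesets, 18.2% were higher and 14.1% lower in the first comparison (median 0.08), and 19.4% and 12.9% in the second (median 0.10). SFN, which encodes 14-3-3σ, was 2.36-fold lower with FGF19, while MDM4 and PPM1D were 1.52- and 1.45-fold higher. PPM1D was also 1.71-fold higher after both agents than after TNFα alone. PLK3 was at 251 and 266 with TNFα, and with FGF19 + TNFα at 124 and 129.7 (2.04-fold lower, adjusted p = 0.00437 from limma). FOXO factors are a family that also acts on CDKN1B and BTG1. Of 14 genes of FOXO factors and their targets, 4 were higher and 5 lower with FGF19, where 32.2% of all probesets were called. After both agents, 1 was higher and 5 lower than after TNFα alone, where 32.4% of all probesets were called. BCL6 and FBXO32 were 1.66- and 1.72-fold higher with FGF19 and PINK1 1.87-fold lower. With FGF19 + TNFα against FGF19, SOD2 (3-fold) and PLK3 (2.71-fold) were the 2 of the 87 genes that passed, where 0.282% of all probesets were called. The study had listed PLK3 and SOD2 from these arrays as well.

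**Figure D4:**
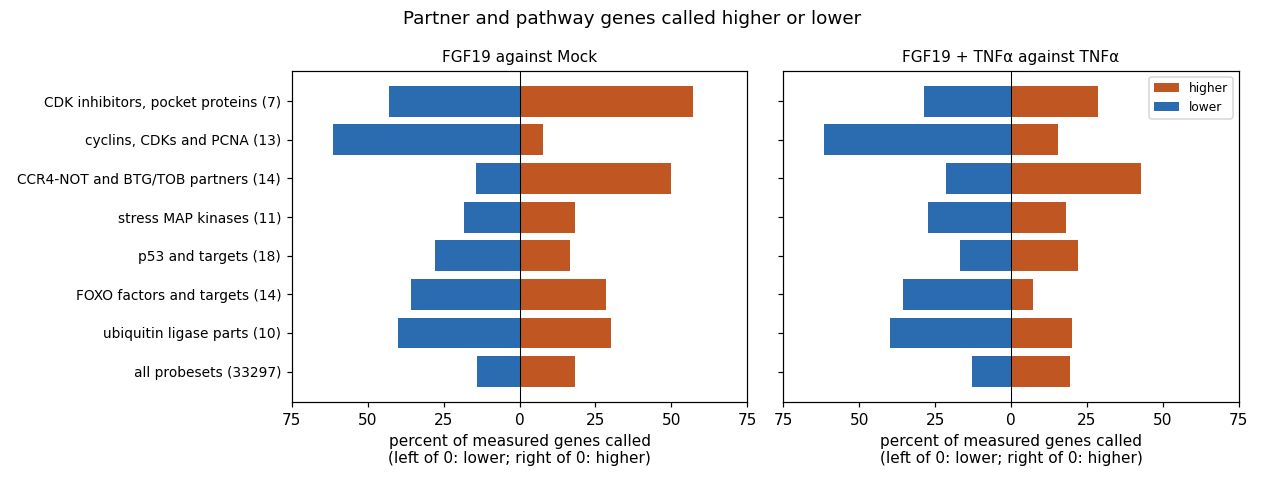
Percent of measured genes in each of 7 lists (number measured in brackets) called higher (orange, right of 0) or lower (blue, left of 0) at an adjusted p under 0.05 with FGF19 against Mock and with FGF19 + TNFα against TNFα, beside all 33297 probesets. Of the 13 cyclin, CDK and PCNA genes 8 were lower in each panel (14.1% and 12.9% of all probesets). Of the 14 CCR4-NOT genes 7 and 6 were higher (18.2% and 19.4% of all probesets).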

How the data were processed

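Total RNA of the 8 samples was hybridised to Affymetrix Human Gene ST arrays. The intensity of each probeset, on a linear scale, was deposited by the authors in a single table, made with Affymetrix Expression Console and PLIER. For both tools the version, and for the table the normalization between arrays, were not given in the sources used here. Groups and replicate numbers came from the sample titles.

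Here, 240 zeros were replaced by the lowest signal above 0 on that array (0.01) before taking log2, with no further scaling. limma 3.58.1 (lmFit, eBayes; R 4.3.3) was fitted to 4 groups over all 33297 probesets. Steps were tested on simulated data. Array depth has no count behind it, so that the number of arrays limits the precision. Probesets were named from the platform annotation (1 symbol for 19460, several for 1754, none for 12083), with 19429 symbols matched to RefSeq by Entrez identifier; each gene was taken at its brightest probeset. Named genes were the 9 measured members, GADD45G and BTG4, and up to 3 genes per list and comparison with the smallest p. For the ubiquitin ligase list, each gene called with FGF19 against Mock was named. For members called with TNFα or in the interaction, the 3 most alike probesets were named. Genes and lists were chosen with earlier results of these data known. The fit was repeated without the dimmest 20 percent of probesets, with 16 added to each signal, after cyclic loess or quantile normalization, with no moderation, with a trended and robust prior, on the compared groups only, with a replicate block, and leaving out each array. Motifs were searched in the 250 bases before each start, with pandas 2.3.3 and Python; figures used matplotlib 3.10.9.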

Additional observations from a re-analysis of the deposited data

How the results depend on the processing

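Over the 9 genes and 6 comparisons, 54 log2 differences were recomputed under the alternatives, 855 values in all; 816 kept their direction, where either value was called, and their side of the threshold, 30 lost a call, 9 gained one and 0 reversed while called. Of the 17 called differences, 11 kept their call under each alternative. All alternatives started from the deposited probeset signal, so the step from probes to probesets was not varied. After quantile or cyclic loess normalization the number of genes called was as reported in each comparison, although the median of all probesets in FGF19 + TNFα against TNFα went from 0.10 to 0.01, and that of calls from 6474 higher and 4299 lower to 5100 and 4735 (quantile).

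With TNFα against Mock, 3 genes were called; 5 were with a trended and robust prior (BTG3 higher and TOB1 lower joined), 1 with only the groups compared, and 1 to 3 with 1 array left out. With FGF19 + TNFα against FGF19, 0 were called; 2 were with 16 added before log2, 1 with the dimmest 20 percent left out, 2 with a trended and robust prior, and 0 with any array left out. Among the 4 groups, 5 were called; 3 were with no moderation and 2 to 5 with 1 array left out. With 1 array left out, 2 to 4 were called with FGF19 against Mock, 4 to 5 with FGF19 + TNFα against TNFα and 4 to 6 with FGF19 + TNFα against Mock; the lone array of a group was then assumed to vary like the others. The causes were not tested.

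Replicate numbers do not pair the cultures by the labels, and deviations of same-numbered arrays from their group means correlated at 0.01 to 0.33 over 26637 probesets, 4 of the 6 pairs under 0.1. With a replicate block the counts were 2 with TNFα against Mock (BTG1 lost), 3 with FGF19 against Mock, 5 with FGF19 + TNFα against TNFα, 0 against FGF19, 6 against Mock, 0 for the interaction and 5 among the 4 groups.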
